A study of Mus musculus with 122 samples.

Results

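The deletion of Cebpb with LyzMCre was examined in adult mouse alveolar macrophages, the resident phagocytes of the lung air spaces. The comparison holds 4 of the 122 samples of the series, chosen by their titles and genotype labels: 2 control libraries and 2 knockout libraries, read over all genes as raw counts. The controls carried Cebpb flox/flox on the strain Cebpbtm1.1Elgaz/J and a C57BL/6 background. The knockouts were LyzM Cre/Cre Cebpb flox/flox, from a cross of that strain with Lyz2tm1(cre)Ifo/J on the same background. All 4 libraries therefore share the floxed allele, and no treatment was given. Although the titles of the controls contain LyzMCre, their genotype label lists no Cre. Both copies of the lysozyme gene Lyz2 carried Cre in the knockouts, so that the presence of Cre, the change of Lyz2 and the loss of Cebpb cannot be told apart in these groups. LyzM drives Cre in myeloid cells in general, and monocytes and neutrophils of these mice can carry the deletion too.

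Cells came from bronchoalveolar lavage and were sorted by FACS, and polyA RNA was sequenced from the 3′ end with MARS-seq primers. The series compares Cebpb mutant alveolar macrophages with their controls. Another conditional deletion, with CD11cCre, and a germline knockout sorted for low CD11b serve below as comparisons of their own. The labels name a replicate number per library and no animal, sex or sort gate, so that p values measure the spread between these samples, which may be technical.

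Cebpb encodes C/EBPβ, a basic leucine zipper transcription factor that binds DNA as a dimer and is abundant in myeloid cells. Alveolar macrophages depend on GM-CSF, which acts through its receptor, STAT5 and the nuclear receptor PPARγ. They take up and degrade surfactant lipids and proteins, and they renew themselves locally by division.

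Total counts were 1669592 and 1298143 in the controls and 909515 and 4659853 in the knockouts, with 10585 to 12150 genes detected. A floor of 3 counts over a group stood for 0.979 CPM in the controls and 0.526 CPM in the knockouts, and covers counting error only. CPM are each gene's counts scaled to a common library total with TMM factors. Mitochondrial genes took 0.813% to 0.973% of the control counts and 1.37% to 1.62% of the knockout counts, and the part of this difference in the results was not tested. No count fell on the Y-linked genes Ddx3y, Uty, Kdm5d and Eif2s3y in any of the 4 libraries.

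The knockout libraries stood farther apart from each other than the controls did. Of 3676 tested genes with at least 50 CPM in 1 group and counts in every library, 465 (12.6%) differed at least 2-fold between the knockouts and 17 (0.462%) between the controls. The median absolute log2 ratio of CPM was 0.44 between the knockouts and 0.15 between the controls. Knockout 1 was the higher library at 341 of the 465 genes and knockout 2 at 124. The ratios peak near 0 in both groups, and the knockout curve is the wider one, with a shoulder on the side of knockout 1.

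**Figure D1:**
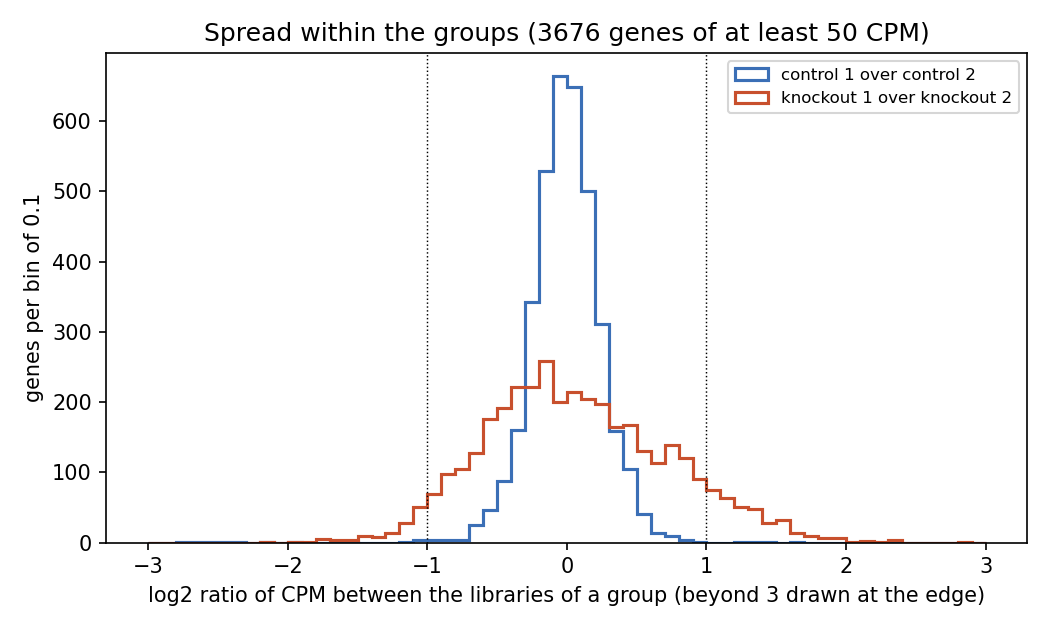
Histograms of the log2 ratio of CPM between the libraries of a group (x axis) over 3676 genes of at least 50 CPM, with the number of genes per bin on the y axis. Dotted lines mark 2-fold: 465 genes lie beyond them for the knockouts and 17 for the controls.

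The targeted gene was low in both knockout libraries. Cebpb (ENSMUSG00000056501, GRCm38 chromosome 2, 167688915 to 167690432) held 285 and 307 CPM in the controls and 57.8 and 25.4 CPM in the knockouts. The groups did not overlap, and the log2 fold change, knockout over control, was -2.95 (SE 0.389, adjusted p 0.00294, edgeR quasi-likelihood test with Benjamini-Hochberg adjustment over all tested genes, as for every adjusted p of this comparison). The knockouts kept 19.5% and 8.56% of the control mean. Gene counts do not say whether this remainder came from cells without the deletion.

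Lyz2, the lysozyme gene that holds the Cre insertion, was among the most abundant transcripts of the controls. Its level (ENSMUSG00000069516, chromosome 10, 117277541 to 117282272) was 33500 and 34700 CPM in the controls and 2380 and 1090 CPM in the knockouts, a log2 fold change of -4.30 (SE 0.505, adjusted p 0.00186). It took 3.47% and 3.57% of all control counts and 0.213% and 0.114% of the knockout counts. For Cebpb and for Lyz2 alike, knockout 1 was the higher of the knockouts, by 2.28 and 2.18 times. The neighbouring lysozyme gene Lyz1 held 16.2 and 9.74 CPM against 13.5 and 38.4 CPM, overlapping groups that did not pass (log2 1.13, adjusted p 0.317). Reads that match both lysozyme genes could have been assigned to either, so the low Lyz1 values are uncertain.

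A C/EBPβ peak overlapped the Lyz2 promoter window in both deposited ChIPmentation peak lists, which come from wild-type alveolar macrophages. The window from 250 bases before to 50 bases after the start, on the minus strand (chr10:117282223-117282522, RefSeq, GRCm38.p6), is shown because this promoter drives both lysozyme and, in the knockouts, Cre. It holds no match to the C/EBP motif TTGCNNAA on either strand.
Lyz2: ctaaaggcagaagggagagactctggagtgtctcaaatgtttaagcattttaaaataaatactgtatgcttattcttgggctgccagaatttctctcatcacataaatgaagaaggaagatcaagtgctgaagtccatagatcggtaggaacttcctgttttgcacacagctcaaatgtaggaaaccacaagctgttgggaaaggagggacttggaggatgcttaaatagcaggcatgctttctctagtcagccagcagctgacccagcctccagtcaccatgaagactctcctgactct

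Over all genes, 8654 of 22050 entries were tested and 405 were called at an adjusted p under 0.05, which is 4.68%. Of these, 256 were higher in the knockouts (2.96% of the tested genes) and 149 were lower (1.72%). These shares are the background for the calls counted in each gene list below. The smallest absolute log2 fold change among the calls was 1.03 and their median was 2.46, beside a median log2 fold change of 0.03 over all tested genes. CPM of the groups did not overlap at 4039 tested genes (46.7%), all 405 calls among them. With 2 libraries a group, an unadjusted p under 0.05 was reached by 1285 genes. The number of calls moved with the libraries used: 1877 genes passed without knockout 1 and 2748 without knockout 2, against 214 without control 1 and 245 without control 2, where the lone library is assumed to vary like the other group.

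**Figure D2:**
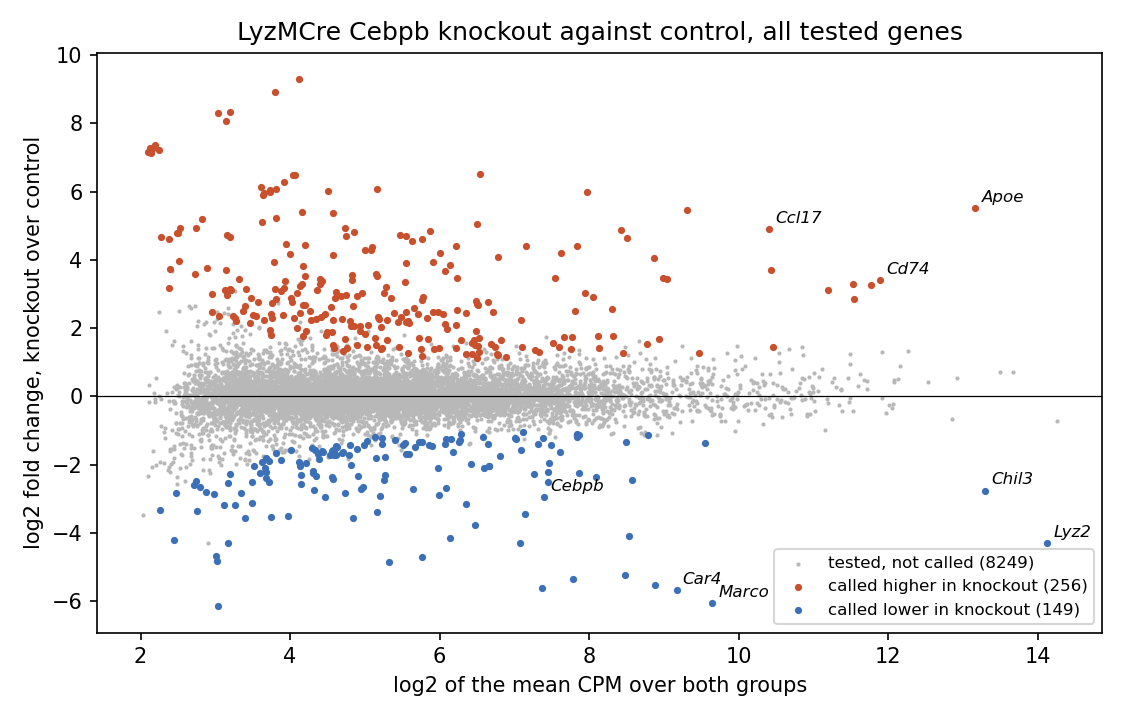
Each point is 1 of 8654 tested genes, with the log2 of its mean CPM on the x axis and its log2 fold change, knockout over control, on the y axis. The 256 higher calls (red) run over all levels up to Apoe, and the 149 lower calls (blue) include the abundant Lyz2 and Chil3.

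Some surface and enzyme genes that mark alveolar macrophages nearly vanished, while most members of the list did not pass. Marco, a class A scavenger receptor for bacteria and particles, held 1630 and 1550 CPM in the controls and 12.3 and 30.5 CPM in the knockouts (log2 -6.06, SE 0.448, adjusted p 0.000197). Car4, a membrane-bound carbonic anhydrase, fell from 1080 and 1180 to 24.6 and 20.6 CPM (log2 -5.67, SE 0.338, adjusted p 0.000132). Krt79, a keratin, fell from 654 and 741 to 17.2 and 19.2 CPM (log2 -5.23, SE 0.321, adjusted p 0.000132). In each of these the knockouts lay far below both controls. Marco kept 0.776% and 1.92% of its control mean, Car4 2.18% and 1.83%, and Krt79 2.47% and 2.75%, all smaller remainders than those of Cebpb.

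Abundant secreted and lipid-binding products fell less steeply. Chil3, a chitinase-like protein, held 18100 and 17000 CPM against 1740 and 3440 CPM (log2 -2.76, adjusted p 0.00698; 0.188 where the spread was shared with the germline libraries). The fatty acid binding protein gene Fabp1 held 767 and 519 CPM against 107 and 129 CPM (log2 -2.44, adjusted p 0.00247), and the cytokine gene Il18 held 316 and 282 CPM against 39.4 and 61.5 CPM (log2 -2.52, adjusted p 0.00187). All 3 had separate groups.

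Other identity genes did not pass. Siglecf, a sialic acid binding lectin used to sort these cells in many studies, held 199 and 197 CPM against 68.9 and 148 CPM, lower in both knockouts (log2 -0.82, adjusted p 0.304), and was called lower without knockout 1 (adjusted p 0.025) or knockout 2 (3.73e-09). Pparg, the nuclear receptor of their lipid program, held 212 and 148 CPM against 57.8 and 99.2 CPM, with no overlap (log2 -1.16, SE 0.325, adjusted p 0.0944). It passed with the replicate block (adjusted p 0.033), with no filter on low counts (0.00409) and with the spread shared with the germline (0.0484) or CD11cCre libraries (0.00607). Fabp4, another lipid carrier, held 301 and 205 CPM against 320 and 543 CPM (log2 0.78, adjusted p 0.323). Itgax, which encodes CD11c, held 575 and 594 CPM against 769 and 1320 CPM (log2 0.84, adjusted p 0.249), and passed without either knockout (adjusted p 2.25e-16 and 0.0251). Over the list of alveolar macrophage identity genes, 33 of 35 members were tested, 9 were called lower (Car4, Chil3, Cxcl2, Ear1, Fabp1, Il18, Krt79, Marco, Serpinb1a) and 1 higher (Slc7a2), and 23 did not pass. Over all tested genes, 1.72% were called lower and 2.96% higher. The median log2 fold change of the 33 members was -0.54, beside 0.03 over all tested genes, and 21 of the 33 lay below 0. The knockout libraries thus still held Siglecf, Itgax and Fabp4 transcripts, while those of Marco, Car4 and Krt79 were nearly gone.

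**Figure D3:**
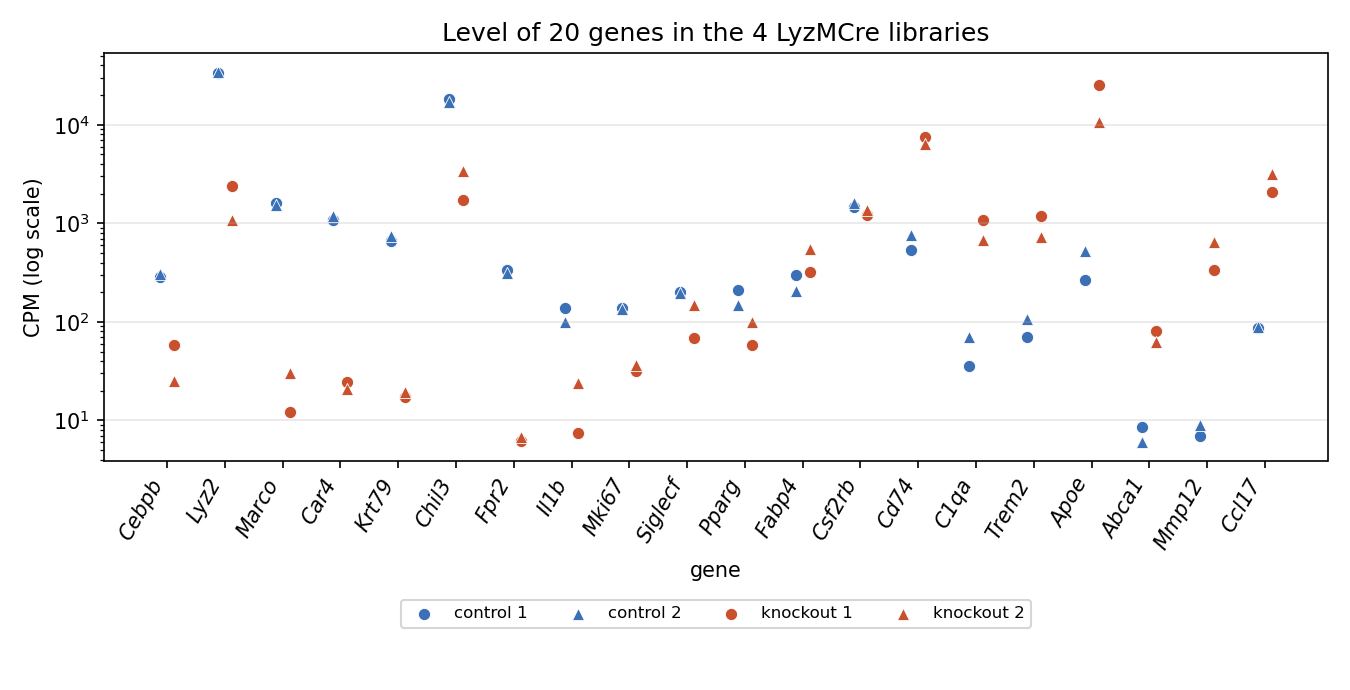
CPM on a log axis for 20 genes in each library, with controls in blue and knockouts in red, circles for replicate 1 and triangles for replicate 2. Marco, Car4, Krt79 and Fpr2 lie far lower in both knockouts, Apoe and Mmp12 far higher, and Siglecf, Pparg, Fabp4 and Csf2rb within a few-fold of the controls.

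Receptors for bacterial and metabolic signals fell together with these markers. The formyl peptide receptors Fpr2 and Fpr1, which sense bacterial peptides, held 334 and 315 CPM against 6.15 and 6.75 CPM (log2 -5.61, adjusted p 0.000132) and 495 and 370 CPM against 6.15 and 12.5 CPM (log2 -5.34, adjusted p 0.000197). Ffar2, a receptor for short-chain fatty acids, held 85.5 and 71.2 CPM against 0 and 3.27 CPM (log2 -4.86, adjusted p 0.000953). C5ar1, the receptor for complement C5a, held 20.2 and 23.2 CPM against 6.15 and 3.07 CPM (log2 -2.51, adjusted p 0.018), and Cd14, the co-receptor for endotoxin, held 144 and 124 CPM against 56.6 and 59.7 CPM (log2 -1.20, adjusted p 0.0313). Without control 1 or control 2, C5ar1 (adjusted p 0.0757 and 0.111) and Cd14 (0.56 and 0.25) were not called. Toll-like receptor genes did not pass: Tlr2 held 426 and 321 CPM against 198 and 287 CPM (log2 -0.61, adjusted p 0.392) and Tlr4 39.8 and 30.7 CPM against 16 and 27.6 CPM (log2 -0.59, adjusted p 0.498). Tlr2 and Tlr4 were still lower in each knockout than in either control. The log2 fold change of Tlr2 was -0.379 without knockout 1 and -0.919 without knockout 2. That of Tlr4 was -1.15 without knockout 2.

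A chemokine receptor moved the other way. Cxcr2, a receptor for CXC chemokines best known from neutrophils, held 7.51 and 6 CPM against 96 and 188 CPM (log2 4.40, adjusted p 0.000895). Of 24 chemokine, chemoattractant and Toll-like receptor genes, 18 were tested, 2 were called higher, Cxcr2 among them, and 4 lower (C5ar1, Cd14, Fpr1, Fpr2), with a median log2 fold change of -0.56.

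Promoter windows of Ffar2 overlapped C/EBPβ peaks in both lists, as did the window of Fcor, which fell from 123 and 144 to 8.61 and 7.16 CPM (log2 -4.14, adjusted p 0.000197). Fcor lies beside Mcemp1 on chromosome 8, a gene of mast cell and macrophage membranes that fell from 745 and 655 to 39.4 and 42.3 CPM (log2 -4.09, adjusted p 0.000197). With no strand given for the counting, reads of such close genes cannot always be told apart. The promoters of the 2 steepest such falls beside Lyz2 are shown, both on the minus strand and in RefSeq coordinates of GRCm38.p6 (Ffar2, its most upstream start, chr7:30823726-30824025; Fcor, chr8:3672342-3672641). Capitals mark the motif TTGCNNAA on either strand, which this Ffar2 window holds once, at position -74 from the start, and which the Fcor window does not hold. The windows of the other 3 RefSeq starts of Ffar2 each hold 1 match, at -148, 30 and -23 from their own start. The matches at 30 and -23 are the same bases, because those windows overlap.
Ffar2: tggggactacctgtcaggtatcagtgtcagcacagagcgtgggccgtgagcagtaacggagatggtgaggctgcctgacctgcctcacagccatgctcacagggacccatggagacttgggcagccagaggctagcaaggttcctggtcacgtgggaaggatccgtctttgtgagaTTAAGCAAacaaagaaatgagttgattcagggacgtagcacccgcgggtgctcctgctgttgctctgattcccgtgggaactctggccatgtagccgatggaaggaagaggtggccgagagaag
Fcor: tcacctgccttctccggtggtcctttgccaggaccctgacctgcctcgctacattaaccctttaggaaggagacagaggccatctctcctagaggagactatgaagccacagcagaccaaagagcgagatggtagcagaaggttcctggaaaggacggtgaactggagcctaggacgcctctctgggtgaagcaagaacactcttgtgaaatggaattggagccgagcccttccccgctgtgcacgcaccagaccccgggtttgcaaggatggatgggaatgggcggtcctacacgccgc

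Cytokines and chemokines split into a group that fell and a group that rose. Cxcl3, a neutrophil chemoattractant, held 120 and 90.7 CPM against 3.69 and 4.09 CPM (log2 -4.70, SE 0.355, adjusted p 0.000197). Its relative Cxcl2 held 97.6 and 104 CPM against 28.3 and 21.3 CPM (log2 -2.08, adjusted p 0.00327). Il1b, the inflammasome-processed cytokine, held 140 and 99.7 CPM against 7.38 and 24.1 CPM (log2 -2.69, adjusted p 0.00684), and its receptor antagonist Il1rn 106 and 92.2 CPM against 27.1 and 45 CPM (log2 -1.38, adjusted p 0.0354). These 4 were lower in both knockouts. Ccl17, a chemokine that attracts CCR4-bearing T cells, held 87.2 and 89.2 CPM against 2100 and 3150 CPM (log2 4.90, adjusted p 0.000197). Ccl22, a ligand of the same receptor, held 21.4 and 15.7 CPM against 140 and 74.6 CPM (log2 2.47, adjusted p 0.00641; 0.309 with the spread shared with the germline libraries). Of 31 cytokine and chemokine genes, 21 were tested, 4 were called higher (Ccl17, Ccl2, Ccl22, Cxcl16) and 5 lower (Cxcl2, Cxcl3, Il18, Il1b, Il1rn), and the median was -0.02. Tnf was not among them, at 45.6 and 24 CPM against 20.9 and 32.1 CPM (log2 -0.33, adjusted p 0.767). Il1rn was not called without control 1 (adjusted p 0.26) or control 2 (0.0988). The Ccl, Cxcl, Fpr, Ear and H2 families hold near-identical copies, so a part of their reads may have been split or dropped, and their values are uncertain to that degree.

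A part of the cell cycle genes, 12 of 36 tested, was called lower, beside 1.72% of all tested genes, and 24 did not pass. Mki67, which marks dividing cells, held 140 and 135 CPM against 32 and 36.2 CPM (log2 -1.99, SE 0.263, adjusted p 0.00289; 0.0841 with the spread shared with the germline libraries). Bub1b, a kinase of the spindle checkpoint, held 53.1 and 54 CPM against 2.46 and 5.11 CPM (log2 -3.55, SE 0.375, adjusted p 0.00121). The 12 calls were Bub1b, Ccnb2, Cdk1, Gins2, Mcm3, Mcm5, Mcm7, Mki67, Rrm2, Stmn1, Top2a and Ube2c, with none higher and a median log2 fold change of -1.43. The fold change was below 0 for 35 of the 36. The exception was the inhibitor Cdkn1a (p21), at 634 and 654 CPM against 1650 and 1260 CPM (log2 1.18, adjusted p 0.0582), which passed in DESeq2 (adjusted p 0.00641). Mcm3 was not called without control 1 (adjusted p 0.0608). In these bulk samples, fewer dividing cells and less transcript per cell cannot be told apart.

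Several lipoprotein and cholesterol efflux genes rose, among them Apoe, the most abundant called riser in the knockouts. Apoe, the apolipoprotein that carries cholesterol out of macrophages, held 265 and 521 CPM in the controls and 25500 and 10600 CPM in the knockouts (log2 5.52, SE 0.605, adjusted p 0.00147). Knockout 1 was 2.4 times knockout 2, and the adjusted p was 0.0774 where the spread was shared with the CD11cCre libraries. Apoc1, a small apolipoprotein of the same gene cluster, held 15.6 and 25.5 CPM against 452 and 296 CPM (log2 4.19, adjusted p 0.000466). Abca1, the transporter that exports cholesterol, held 8.66 and 6 CPM against 80 and 61.7 CPM (log2 3.21, adjusted p 0.00142), and Scd1, a fatty acid desaturase, 2.31 and 1.5 CPM against 56.6 and 55.8 CPM (log2 4.81, adjusted p 0.000403). Each of these was higher in both knockouts. The transporter Abcg1, the partner of Abca1, did not pass, with 780 and 572 CPM against 608 and 861 CPM (log2 0.12, adjusted p 0.903).

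Of 19 cholesterol efflux and LXR target genes, 17 were tested, 6 were called higher (Abca1, Abca9, Apoc1, Apoe, Pltp, Scd1) and 1 lower (Scarb1), with a median of 0.45. Scarb1, a receptor for high-density lipoprotein, held 188 and 184 CPM against 88.6 and 92.6 CPM (log2 -1.03, adjusted p 0.0479; 0.0539 in DESeq2, 0.679 without control 1 and 0.573 without control 2). None of the genes of cholesterol synthesis was called, but 21 of the 22 tested had a fold change below 0, with a median of -0.65. An example is Sqle, which encodes squalene epoxidase, at 50.2 and 45 CPM against 7.38 and 29.2 CPM (log2 -1.13, adjusted p 0.255). Sqle passed with the replicate block (adjusted p 0.0161), with no filter on low counts (0.0199) and without knockout 1 (0.0066) or knockout 2 (1.76e-06). No member passed among 26 tested genes of fatty acid oxidation (median 0.01) and 18 of lipid droplets (median 0.03).

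Genes of lipid-associated macrophages overlapped with these. Trem2, a lipid-sensing receptor, held 69.9 and 106 CPM against 1200 and 728 CPM (log2 3.45, adjusted p 0.00142). Mmp12, the macrophage elastase, held 6.93 and 8.99 CPM against 338 and 653 CPM (log2 5.98, SE 0.454, adjusted p 0.000197), and Igf1, a growth factor, 66.4 and 58.5 CPM against 402 and 531 CPM (log2 2.90, adjusted p 0.000953). With Apoe, 4 of the 18 tested members were called higher and none lower, and the median was 0.76. The other 14 members did not pass.

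Antigen presentation genes held 7 higher calls among 12 tested, beside 2.96% of all tested genes, and 5 genes did not pass. Cd74, which encodes the invariant chain that guides class II molecules, held 536 and 763 CPM against 7440 and 6410 CPM (log2 3.41, adjusted p 0.0013). H2-Eb1, a class II beta chain, held 154 and 242 CPM against 3370 and 1750 CPM (log2 3.69, adjusted p 0.00186). Ciita, the transactivator that switches these genes on, held 24.3 and 26.2 CPM against 156 and 121 CPM (log2 2.44, adjusted p 0.00186). The calls were Cd74, Cd86, Ciita, H2-Aa, H2-Ab1, H2-DMb1 and H2-Eb1, with none lower and a median of 1.89. All 12 fold changes were above 0. H2-Aa was not called without control 1 (adjusted p 0.127).

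Complement genes moved in both directions. The C1q chains, which start the classical pathway, were higher: C1qa held 35.8 and 70.4 CPM against 1090 and 673 CPM (log2 4.06, adjusted p 0.00121), and C1qb 19.1 and 37.5 CPM against 856 and 538 CPM (log2 4.64, adjusted p 0.000547). Both lost the call where the spread was shared with the CD11cCre libraries (adjusted p 0.131 and 0.125). The receptor gene C3ar1 held 0 and 3.75 CPM against 48 and 54.6 CPM (log2 4.92, adjusted p 0.00327; 0.0966 in DESeq2). The central component C3 was lower, at 301 and 325 CPM against 139 and 154 CPM (log2 -1.09, adjusted p 0.0449; 0.0715 with the replicate block, 0.565 and 0.666 without control 1 and control 2). Of 14 tested genes, 6 were called higher, among them C1qa, C1qb, C1qc, C2 and C3ar1, and 4 lower (C1ra, C3, C4b, C5ar1).

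**Figure D4:**
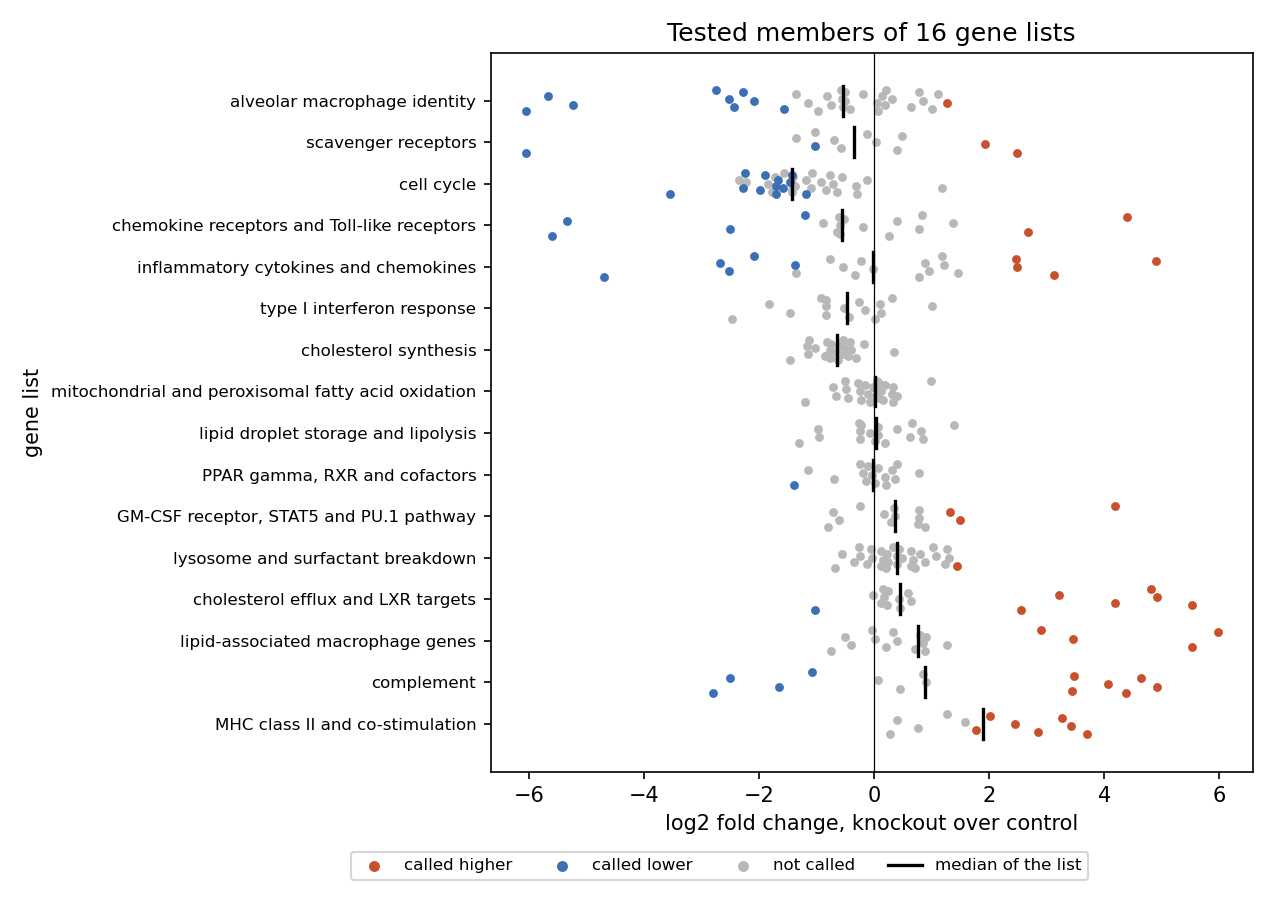
Log2 fold change, knockout over control (x axis), for the tested members of 16 gene lists (y axis), with calls in red and blue, other members in grey and the list median as a black bar. The cell cycle median is -1.43 and the MHC class II median 1.89, while fatty acid oxidation and lipid droplet genes have medians of 0.01 and 0.03 and no call.

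Regulators of macrophages held 3 calls. Irf4, an interferon regulatory factor, held 6.35 and 9.74 CPM against 46.8 and 51.7 CPM (log2 2.64, adjusted p 0.003), and the stress-induced factor Atf3 19.6 and 30 CPM against 138 and 82.4 CPM (log2 2.13, adjusted p 0.0102; 0.0748 without control 1). Both were higher in each knockout, and among 27 tested regulators 3 were called higher and none lower, with a median of 0.34. Over all tested genes, 2.96% were called higher and 1.72% lower. Spi1, which encodes PU.1, differed mainly within the knockouts, with 683 and 764 CPM against 1980 and 528 CPM (log2 0.79, adjusted p 0.572), and without knockout 1 its log2 fold change was -0.443 (adjusted p 0.0114). The related genes Cebpa, at 78.5 and 103 CPM against 113 and 165 CPM (log2 0.64, adjusted p 0.352), and Cebpd, at 114 and 123 CPM against 107 and 92.4 CPM (log2 -0.26, adjusted p 0.722), did not pass.

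The list of GM-CSF receptor, STAT5 and PU.1 pathway genes included 3 higher calls among 15 tested, beside 2.96% of all tested genes. The receptor chains did not pass: Csf2ra held 221 and 238 CPM against 295 and 266 CPM (log2 0.29, adjusted p 0.69), and Csf2rb 1470 and 1620 CPM against 1220 and 1370 CPM (log2 -0.25, adjusted p 0.766). None was called lower. Csf1, which encodes M-CSF, the growth factor of other macrophages, held 1.73 and 12 CPM against 164 and 79.3 CPM (log2 4.19, adjusted p 0.00599). The survival gene Bcl2l1 held 51.4 and 40.5 CPM against 162 and 102 CPM (log2 1.49, adjusted p 0.0297), and the STAT5 target Socs2 100 and 84.7 CPM against 186 and 272 CPM (log2 1.31, adjusted p 0.0331; 0.0538 scaled to total counts). Without control 1 or control 2, Bcl2l1 (adjusted p 0.137 and 0.351) and Socs2 (0.36 and 0.559) were not called. Among 16 tested genes of PPARγ, RXR and cofactors, Angptl4, an inhibitor of lipoprotein lipase, was the 1 call, at 219 and 248 CPM against 62.8 and 110 CPM (log2 -1.40, adjusted p 0.0364; 0.124 and 0.234 without control 1 and control 2). No member of the type I interferon list was called among 16 tested (median -0.48).

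Secreted proteins, iron handling and matrix genes added further calls. Slpi, a secreted inhibitor of leukocyte proteases, held 510 and 468 CPM against 5620 and 2790 CPM (log2 3.10, adjusted p 0.003). Wfdc21, a small protein with a related domain, moved the other way, from 1010 and 827 CPM to 27.1 and 16.2 CPM (log2 -5.52, adjusted p 0.000197), and Gal, which encodes the neuropeptide galanin, from 278 and 238 CPM to 13.5 and 13.1 CPM (log2 -4.28, adjusted p 0.000197). The iron exporter gene Slc40a1, for ferroportin, held 0.577 and 2.25 CPM against 25.8 and 33.1 CPM (log2 4.47, adjusted p 0.00247). All 4 had separate groups.

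Of 12 tested matrix and metalloproteinase genes, 4 were called higher (Ecm1, Mmp12, Plau, Timp2) and none lower, with a median of 0.50. The shares over all tested genes were 2.96% higher and 1.72% lower. Timp2, an inhibitor of metalloproteinases, held 222 and 244 CPM against 676 and 813 CPM (log2 1.68, adjusted p 0.00819; 0.38 without control 1 and 0.229 without control 2). Of 15 tested Fc receptors and C-type lectins, 2 were called higher (Fcgr1, Fcrls) and 4 lower (Clec1b, Clec4d, Clec4e, Fcgr4). Fcgr1, the high-affinity receptor for IgG, held 47.9 and 57 CPM against 182 and 124 CPM (log2 1.53, adjusted p 0.0193; 0.344 without control 1 and 0.125 without control 2). Of 31 tested lysosomal genes, 1 was called higher and none lower, beside 2.96% and 1.72% of all tested genes, and the median was 0.39.

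The steepest rises started from few or no control counts. Both controls were at 0 for 11 called risers, and 39 of the 256 had a control mean under the floor of 3 counts over the group. Blnk, an adaptor of B cell and macrophage receptor signaling, was at 0 in both controls and at 32 and 37.8 CPM in the knockouts, at least 35.7-fold higher. Tenm4, a teneurin membrane protein, was at 0 against 29.5 and 26 CPM, at least 28.4-fold higher. Slamf7, a surface receptor of leukocytes, held 1.73 and 2.25 CPM against 159 and 209 CPM (log2 6.52, SE 0.408, adjusted p 0.000132). Blnk, Tenm4 and Slamf7 were thus read at many counts in the knockouts and at few in the controls. Ecm1, an extracellular matrix protein, rose less steeply and from well above this floor. It held 16.2 and 29.2 CPM against 754 and 577 CPM (log2 4.89, adjusted p 0.000234).

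Among the steep risers, Rgs7bp and Dbp carried C/EBPβ peaks of both lists on their promoter window. Rgs7bp, a partner of regulators of G protein signaling, held 1.15 and 0.749 CPM against 77.5 and 64.4 CPM (adjusted p 0.000197), which is 3 counts against 378 and a ratio of 67.7 (95% exact counting interval 23 to 330). Dbp, a circadian transcription factor of the PAR leucine zipper family, held 0.577 and 0 CPM against 34.5 and 18 CPM (adjusted p 0.00404), which is 1 count against 116, so that the ratio of 62.3 has an exact counting interval of 11 to 2480. These intervals cover counting error only. Their windows (Rgs7bp, minus strand, chr13:105054881-105055180; Dbp, plus strand, chr7:45704997-45705296; RefSeq, GRCm38.p6) are printed beside those of the fallers above, and neither holds a match to TTGCNNAA.
Rgs7bp: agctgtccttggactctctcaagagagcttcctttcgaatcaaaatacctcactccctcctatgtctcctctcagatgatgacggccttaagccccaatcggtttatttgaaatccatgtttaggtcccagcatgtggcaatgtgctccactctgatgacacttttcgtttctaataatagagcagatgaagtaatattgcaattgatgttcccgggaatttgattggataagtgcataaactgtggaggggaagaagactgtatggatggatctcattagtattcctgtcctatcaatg
Dbp: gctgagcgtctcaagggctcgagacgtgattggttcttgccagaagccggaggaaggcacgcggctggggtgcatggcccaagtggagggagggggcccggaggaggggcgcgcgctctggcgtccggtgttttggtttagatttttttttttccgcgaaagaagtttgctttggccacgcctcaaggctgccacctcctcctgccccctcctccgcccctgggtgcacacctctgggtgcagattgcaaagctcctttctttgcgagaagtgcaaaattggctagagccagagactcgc

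The binding of C/EBPβ was compared between the classes of called genes, as a description. The 2 peak lists held 27105 and 22558 peaks, which merged into 29873 regions, 18752 of them in both lists. A region of both lists lay within 10 kb of the gene for 128 of 148 lower genes (86.5%), 181 of 255 higher genes (71.0%) and 5187 of 8226 genes not called (63.1%). The share with a region on the promoter window itself was counted only over genes that have such a window. It was 33.9% of 127 lower genes, 10.6% of 189 higher genes and 25.1% of 6783 genes not called. The higher genes thus lay above the genes not called by the first measure and below them by the second. The 2 measures cover different sets of genes. With peaks of a −log10 q of at least 20, the 10 kb shares were 61.5%, 34.1% and 30.4%. The median gene length was 17.4 kb, 28.1 kb and 23.6 kb in the 3 classes, and its part in the shares was not tested.

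The motif TTGCNNAA, searched on both strands, occurred in 10.8% of all RefSeq promoter windows of this length. It occurred in 16.9% of the windows of tested genes that held a region of both lists and in 6.12% of those that did not. Of 83 named called genes, 20 carried such a region on a promoter window, 11 of them lower and 9 higher. Windows on chromosome 18 were left out of this count, though genes there, such as Cd74, stay among the 83. The share among genes not called, over all chromosomes, was 25.1%. That share counts only genes with a promoter window, while the 83 were not limited in this way. The letters were found in the windows of Trem2, Slpi, Clec4e and Mcm3 beside Ffar2, and a match is no proof of a site.

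Monocyte and tissue macrophage markers, of which 5 of 18 tested were called higher and 3 lower, summed to 1750 and 1850 CPM in the controls and 4170 and 3480 CPM in the knockouts. Each list of markers of cells other than macrophages, taken alone, summed to at most 301 CPM in any library. Of the 14 neutrophil markers, 7 were at 0 in every library, among them S100a9, Ly6g, Elane and Mpo. Others were read in all 4 libraries. S100a8 held 19.1 and 15.7 CPM against 16 and 13.9 CPM, and Csf3r 49.7 and 47.2 CPM against 56.6 and 54.6 CPM. Mmp8 held 95.8 and 63.7 CPM against 24.6 and 44.2 CPM. The 14 neutrophil markers summed to 173 and 135 CPM in the controls and 193 and 301 CPM in the knockouts. Cxcr2, given above, is one of these markers. The monocyte gene Ly6c2, and the markers Folr2, Lyve1 and Tmem119 of other tissue macrophages, were at 0 in every library. Lymphocyte markers summed to 3 and 3.46 CPM against 18.5 and 27.2 CPM, with 8 of 15 at 0 in all libraries. Dendritic cell markers summed to 74.2 and 79.1 CPM against 239 and 121 CPM, with Cd209a and Siglech at 0 throughout, and markers of eosinophils, mast cells and basophils to 37.5 and 44.2 CPM against 11.1 and 7.77 CPM. Epithelial markers summed to 79.1 and 77.2 CPM against 64 and 73.2 CPM, and those of stroma and endothelium to 122 and 100 CPM against 169 and 140 CPM. Erythroid markers were highest in knockout 1, at 59.1 CPM, beside 13.3, 6 and 4.29 CPM in control 1, control 2 and knockout 2. Whether RNA of other cells adds to the results was not tested.

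Some genes that did not pass differed widely between the knockout libraries. Tgfb1, a cytokine needed for alveolar macrophage development, held 174 and 206 CPM in the controls and 839 and 214 CPM in the knockouts (log2 1.46, adjusted p 0.213). Without knockout 2 it was called (adjusted p 4.79e-25). Plec, a cytoskeletal linker, held 302 and 287 CPM against 1050 and 243 CPM (log2 1.12, adjusted p 0.409; log2 -0.267 without knockout 1), and Dusp1, an immediate early phosphatase, 65.8 and 81.7 CPM against 11.1 and 48 CPM (log2 -1.11, adjusted p 0.305). Dusp1 passed with the replicate block (adjusted p 0.00615), with no filter on low counts (0.0109) and without knockout 1 (0.00925) or knockout 2 (1.31e-08). Plec passed with no filter (0.0151) and without knockout 2 (4.53e-21). For Tgfb1 and Plec, knockout 2 lay near the controls and knockout 1 apart. Of the 209 called genes at 50 CPM or more, 33 differed at least 2-fold between the knockouts. Over all 3676 genes of this level the share was 12.6%. Alveolar macrophage identity genes were higher in knockout 1 for 7 of 32 members at this level, with a median log2 ratio, knockout 1 over knockout 2, of -0.53 beside 0.03 over all genes of this level. These 3 genes were named after their values were seen.

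The CD11cCre deletion used the same floxed allele with Cre from the transgene Tg(Itgax-cre,-EGFP)4097Ach/J, which is driven by the CD11c promoter, in CD11c +/Cre Cebpb flox/flox mice (4 libraries) against CD11c +/Cre controls with no floxed allele (3 libraries), all adult and C57BL/6. Here both groups carried Cre and Lyz2 was intact. The 2 experiments share no library, and the CD11cCre libraries held 20 to 47 counts of the Y-linked genes, where the LyzMCre libraries held 0. Of 249 LyzMCre risers tested in both, 235 were called higher with CD11cCre too, which is 94.4% of this list and 26.8% of the 878 CD11cCre risers. Of 147 fallers, 124 were called lower too (84.4%, and 21.9% of 566). The background is 16.8% of 9992 genes called with CD11cCre, 10.3% higher and 6.48% lower.

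The difference between the effects was called for 11 of 10394 genes (0.106%; 0.00962% above 0 and 0.0962% below 0), and 787 had an unadjusted p under 0.05. The count was 728 without LyzMCre knockout 2, 6 without knockout 1, 4 and 5 without LyzMCre control 1 and control 2, and 3 and 6 without CD11cCre control 1 and control 3. A difference that was not called does not show equal effects. Lyz2 differed most clearly. Lyz2 was at 46904 CPM in CD11cCre controls and 75030 CPM in their knockouts (log2 0.68, adjusted p 0.00108), against the fall given above, a difference of -5.00 (SE 0.37, adjusted p 1.66e-06). Cxcl3 differed by -4.92 (SE 0.72, adjusted p 0.0088). Its CD11cCre controls held 4.07 CPM, below the 120 and 90.7 CPM of the LyzMCre controls and near the 3.69 and 4.09 CPM of the LyzMCre knockouts, so the control levels stood apart as well. Without LyzMCre control 1 this difference was not called (adjusted p 0.0781), nor without knockout 1 (0.0734).

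The C-type lectin genes Clec4e and Clec4d, which encode receptors for microbial ligands, had effects that were called different. Clec4e held 110 and 109 CPM against 22.1 and 11.7 CPM (log2 -2.88, adjusted p 0.00202), beside a log2 of -0.72 with CD11cCre, a difference of -2.22 (SE 0.35, adjusted p 0.0123). Clec4d held 39.3 and 47.2 CPM against 8.61 and 15.1 CPM (log2 -1.71, adjusted p 0.0251), beside 0.35, a difference of -2.02 (SE 0.35, adjusted p 0.0273). The antioxidant enzyme gene Sod2 held 284 and 309 CPM against 96 and 94.2 CPM (log2 -1.64, adjusted p 0.00608), beside -0.18, a difference of -1.47 (SE 0.23, adjusted p 0.012). In all 3 the LyzMCre effect was the more negative one. Without LyzMCre control 1 or control 2, the difference was not called for Clec4e (adjusted p 0.0936 and 0.125) or Clec4d (0.0936 and 0.3), and the fall of Sod2 itself was not called (0.0511 and 0.084). Hp, which encodes haptoglobin, did not pass with LyzMCre, at 34.1 and 26.2 CPM against 33.2 and 17.6 CPM, and rose with CD11cCre (log2 3.39, adjusted p 7.26e-05). The Hp difference was -3.83 (SE 0.57, adjusted p 0.0088; 0.0936 without LyzMCre control 1). Colec12, a scavenger receptor with a collagen domain, rose in both, by log2 1.92 and 3.67, a difference of -1.74 (SE 0.32, adjusted p 0.0495) that was not called without LyzMCre control 1 (0.283), control 2 (0.377) or several other libraries.

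**Figure D5:**
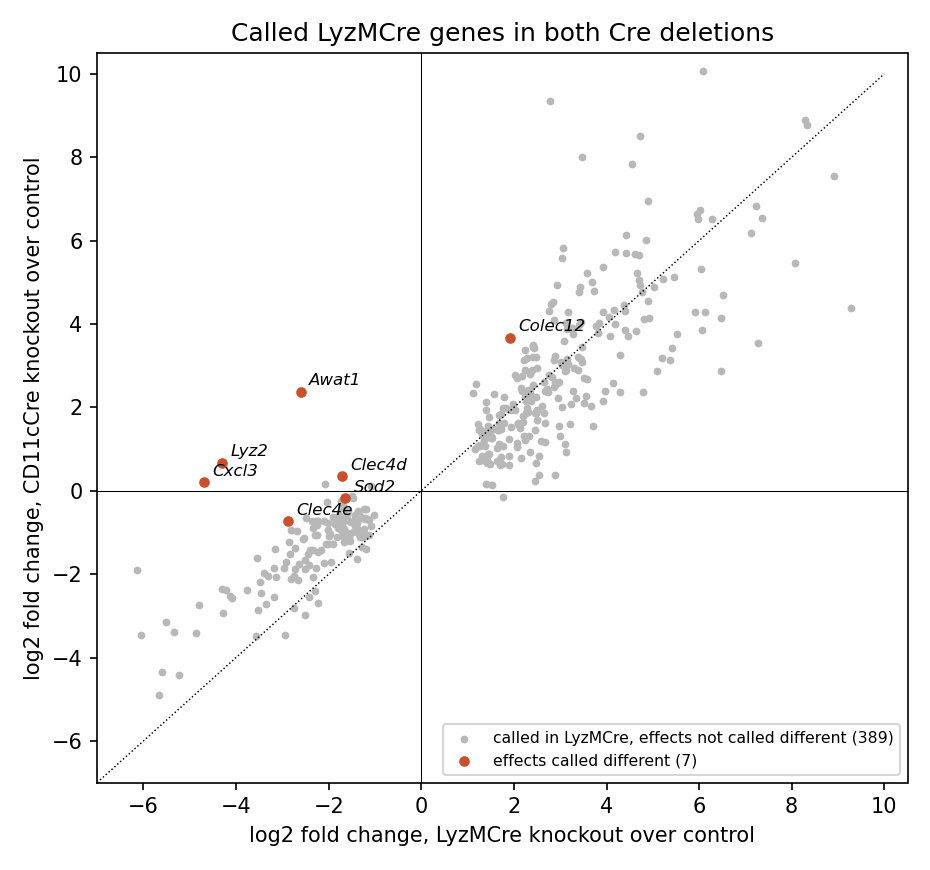
Log2 fold changes of 396 called LyzMCre genes tested in both deletions, LyzMCre on the x axis and CD11cCre on the y axis, with a dotted line of equal effects. The 7 genes in red had effects that were called different, and Lyz2, Cxcl3, Clec4d and Awat1 lie above 0 with CD11cCre and below 0 with LyzMCre.

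The germline knockout, Cebpb -/- against Cebpb +/+ of the line C/EBPb tm1Pfj on a mixed background (4 libraries each, all adult, the knockouts sorted for low CD11b), has no Cre and an intact Lyz2. Of 220 LyzMCre risers tested in both, 190 were called higher (86.4%, and 27.7% of the 687 germline risers), and of 125 fallers 105 were called lower (84%, and 17.4% of 605), beside a background of 17.2% of 7699 genes, 9.17% higher and 8.04% lower. Lyz2 did not pass in the germline knockout (log2 -0.22, adjusted p 0.499). Side by side in LyzMCre, CD11cCre and germline deletion, the log2 fold change of Marco was -6.06, -3.45 and -5.46, that of Car4 -5.67, -4.90 and -4.40, and that of Apoe 5.52, 3.76 and 4.15. The CD11cCre value of Apoe did not pass (adjusted p 0.122).

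The effects differed between LyzMCre and the germline knockout at 12 of 9092 genes (0.132%; 0.055% above 0 and 0.077% below 0), with 430 at an unadjusted p under 0.05. The count was 4 without LyzMCre control 2, 31 and 27 without germline knockout 1 and knockout 2, and 21 without germline wild type 3. Fcgr2b, the inhibitory Fc receptor, held 257 and 278 CPM against 166 and 268 CPM with LyzMCre (log2 -0.28, adjusted p 0.744) and rose in the germline knockout (log2 3.14), a difference of -3.42 (SE 0.39, adjusted p 6.51e-05). Its germline wild-type level was 47.6 CPM, lower than in the LyzMCre controls. Fn1, which encodes fibronectin, held 784 and 739 CPM against 1120 and 1700 CPM (log2 0.89, adjusted p 0.19) beside a log2 of 2.83, a difference of -1.94 (SE 0.35, adjusted p 0.012; 0.107 and 0.115 without LyzMCre control 1 and control 2). Here too the starting levels differed, with 151 CPM in the germline wild type. Apoc1 differed in the other direction, by 3.98 (SE 0.49, adjusted p 0.000183), with germline levels of 102 CPM in wild type and 120 CPM in knockout cells. Ece1, an endothelin-converting enzyme, held 0.577 and 0.749 CPM against 23.4 and 24.7 CPM with LyzMCre and 23.7 CPM against 31 CPM in the germline groups, a difference of 4.58 (SE 0.79, adjusted p 0.01; 0.192 and 0.148 without control 1 and control 2). The LyzMCre controls held 2 counts of Ece1 together, so the size of this difference is uncertain. The strains, backgrounds and sorts of the 2 experiments differ, and these cannot be told apart from the allele.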

How the data were processed

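The authors deposited whole read counts per Ensembl gene, in a table with 64 RNA libraries. STAR 2.6.1a, featureCounts 1.6.3 and GRCm38 appear in the list of tools and builds per the submitters' processing notes. Whether strand was used or molecule barcodes were collapsed is not stated there. The C/EBPβ peak lists, as deposited, carry a −log10 q for each peak (MACS2 2.2.7.1 and BWA 0.7.17 per the submitters' processing notes).

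Groups came from titles and genotype labels. The 4 libraries were fitted alone in edgeR 4.0.16 (R 4.3.3) with TMM scaling, filterByExpr at a minimum count of 10, estimateDisp and robust quasi-likelihood F tests. A call is a Benjamini-Hochberg adjusted p under 0.05. SE is the absolute log2 fold change over the root of F. Differences from CD11cCre and germline effects were interaction contrasts in fits of 11 and 12 libraries. The scripts were tested on simulated counts.

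The naming rule took Cebpb and Lyz2, the 15 steepest changes each way among calls of 20 CPM or more whose groups were separate (no predicted, mitochondrial or sex-linked genes), up to 4 called members a list, up to 6 genes per direction of each difference, and a set of known macrophage genes. Other genes with values, such as Tlr2, Tnf, Sqle, C3 and Spi1, are examples from the lists, chosen after their values were seen. The members and the 34 gene lists were chosen with earlier results of these data known. Of 22050 genes, 20574 matched a RefSeq symbol of GRCm38.p6 and 779 a synonym. Peaks were merged at an overlap of 1 bp in Python 3.11.15. Alternatives covered scaling, filters, DESeq2 1.42.0, the replicate block, the libraries that share the spread, and leaving out each library. Some genes of the lists are counted but not reported here by name.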

Additional observations from a re-analysis of the deposited data

Results flagged for a closer look

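The effects of deletion differed between experiments by an interaction test for 11 genes against CD11cCre and 12 genes against the germline knockout. In log2, LyzMCre effect minus CD11cCre effect, the genes given here were Lyz2 (-5.00), Cxcl3 (-4.92), Hp (-3.83), Clec4e (-2.22), Clec4d (-2.02), Colec12 (-1.74) and Sod2 (-1.47).

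Against the germline knockout, 7 differences lay below 0, namely Pgk1-rs7 (-5.46), Cacna1a (-4.69), Lyz2 (-4.08), Fstl1 (-3.89), Fcgr2b (-3.42), Fn1 (-1.94) and Tgfbi (-1.85). The 5 differences above 0 were Ece1 (4.58), Apoc1 (3.98), Wfdc10 (3.14), Tpbgl (3.04) and Slc37a2 (2.33). Without LyzMCre control 2 the call was lost for Wfdc10 (adjusted p 0.196), Tpbgl (0.115), Slc37a2 (0.115), Cacna1a (0.992) and Pgk1-rs7 (0.115), and that of Tpbgl also without control 1 (0.0688). Cacna1a was further not called without knockout 2 (0.124) or 1 of 4 germline libraries (0.05 to 0.0776), and Pgk1-rs7 not with the replicate block (0.0629), a minimum count of 50 (0.0861), without control 1 (0.296) or without knockout 2 (0.22). Pgk1-rs7 is by its name a sequence related to Pgk1, so its counts are uncertain. With LyzMCre it held 2.89 and 2.25 CPM against 2.46 and 0.409 CPM and was not tested in the fit of those libraries alone. Cacna1a held 2.31 and 7.49 CPM against 13.5 and 3.68 CPM, with overlapping groups. The sizes of both differences thus rest on few LyzMCre counts. Lyz2 was called in both tests.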

How the results depend on the processing

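Of 90 called genes given with values, 61 kept their call under every alternative run for them, and none of the 90 reversed. The count of 405 calls stayed between 389 and 413 under other scalings and with DESeq2 (391), and was 551 with the replicate block. The replicate numbers did not pair the samples (correlation of deviations -0.0932), so the block is a check on numbers alone. The count moved to 805 with no filter, 194 with a minimum count of 50 and 981 with the spread shared with the CD11cCre libraries, and ran from 214 to 2748 when 1 library was left out. For the difference from CD11cCre (11 genes) it was 50 with no filter, 33 with DESeq2, 20 with the replicate block and 7 with a minimum count of 50, and 3 to 728 with 1 library left out, 728 without knockout 2. For the difference from the germline knockout (12 genes) it was 91 with no filter, 39 with DESeq2 and 24 with total counts, and 4 to 31 with 1 library left out. The CD11cCre count of 1677 was 2667 with the replicate block and 1095 to 2688 with 1 library left out, and the germline count of 1325 ran from 995 to 1389. The cause of these changes was not tested.

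Reversals of direction occurred for 8 genes with no LyzMCre call, each with 1 library left out, and the log2 fold changes then ran from -0.315 to 1.65 for Cacna1a (-0.0559 without control 1), -0.155 to 0.359 for Abcg1 (-0.0843 without control 2), -0.484 to 0.153 for Fstl1 (0.0316 without control 2), -0.681 to 0.0168 for Fcgr2b, -0.786 to 0.124 for Hp, -0.267 to 1.83 for Plec, -0.443 to 1.46 for Spi1 and -0.772 to 0.191 for Tnf. Shares of genes on a promoter window or within 10 kb of a start site (73.2% of lower, 44.4% of higher and 50.2% of other genes) were added after seeing the data. They cover only genes with a promoter window. Depth in the shallowest library, 909515 counts, limits what can be read of genes below a few CPM.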
